A study of Mus musculus with 3 samples.

Results

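The Ly49 genes analysed here were Klra1, Klra3, Klra4, Klra7, Klra8 and Klra9, which are 6 of the 56980 genes in the deposited matrices, chosen by name and matched to the gene symbols of the matrices. Droplet-based (10x Genomics) single-cell RNA sequencing had been run on spleens of wild-type mice, with 1 library for each of 3 groups. Control mice received no irradiation, IR mice received 8.5 Gy together with what the labels call a colvent control, and IR+HSO mice received 8.5 Gy together with HSO, which the series title gives as hemp seed oil. The strain, age and number of mice behind each library, the time after irradiation and the HSO dose are not given in the sources used here. Every group was a single library, so differences between groups could not be set against a spread over mice, and no p-value was computed. All intervals are exact 95% intervals for counting error only, and they are too narrow wherever a few cells hold many of the transcripts.

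Ly49 receptors are lectin-like proteins on the surface of mouse natural killer (NK) cells, and most of them bind class I molecules of the major histocompatibility complex. Inhibitory members carry a tyrosine motif at the start of their cytoplasmic tail that recruits the phosphatase encoded by Ptpn6, whereas activating members lack it and signal through the adaptor encoded by Tyrobp. Each NK cell expresses its own combination of Ly49 genes, and the receptors are acquired as NK cells mature. Klra4 encodes the activating receptor Ly49D and Klra8 the activating receptor Ly49H, which recognises a mouse cytomegalovirus protein. Klra1 encodes Ly49A, Klra3 Ly49C, Klra7 Ly49G and Klra9 Ly49I, all inhibitory.

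The 6 genes were Klra1 (ENSMUSG00000079853), Klra3 (ENSMUSG00000067591), Klra4 (ENSMUSG00000079852), Klra7 (ENSMUSG00000067599), Klra8 (ENSMUSG00000089727) and Klra9 (ENSMUSG00000033024). The first 60 coding bases of each are shown because the codon that separates the inhibitory from the activating members lies there. They were read from the GENCODE M21 transcripts (GRCm38), with the 8th codon in capitals. The 2 activating genes come first.
Klra4: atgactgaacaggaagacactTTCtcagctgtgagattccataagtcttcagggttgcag
Klra8: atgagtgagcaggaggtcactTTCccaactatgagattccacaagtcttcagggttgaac
Klra1: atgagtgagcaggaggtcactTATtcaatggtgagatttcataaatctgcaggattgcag
Klra3: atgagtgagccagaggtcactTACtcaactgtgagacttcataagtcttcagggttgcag
Klra7: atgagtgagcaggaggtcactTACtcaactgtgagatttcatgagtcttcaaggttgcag
Klra9: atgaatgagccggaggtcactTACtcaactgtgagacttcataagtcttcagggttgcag
The 8th codon encoded tyrosine in Klra1, Klra3, Klra7 and Klra9 and phenylalanine in Klra4 and Klra8. Counted from the A of the start codon and relative to Klra7, both activating genes had the substitution A23T in this codon, and Klra1 had C24T, which left tyrosine in place. Over these 60 bases Klra3 and Klra9 each differed from Klra7 at 5 positions, Klra1 at 8, and Klra4 and Klra8 at 9.

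The sequences are close enough that reads can be shared between genes of the family. Of all 90-base windows of the Klra8 transcripts, 16.1% were also found in another Klra gene, mostly the pseudogene Klra14-ps. The share was 6.34% for Klra9 (mostly Klra11-ps), 3.33% for Klra7 (mostly Klra13-ps), 2.83% for Klra3 (mostly Klra10), and 0 for Klra1 and Klra4. Klra14-ps had no transcript count (unique molecular identifier, UMI) in NK cells of any library, which at a floor of 3 counts allows up to 1.92, 0.586 and 0.673 CPM (counts-per-million, here of UMIs) in the control, IR and IR+HSO libraries. Levels of Klra3, Klra7, Klra8 and Klra9 are therefore uncertain to the extent that the authors' counting placed such reads in one gene or dropped them.

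All promoter windows of the 6 genes lay on the minus strand of chromosome 6 in GRCm38.p6, the build of the RefSeq promoter table, not that of the counts. Motifs bound by factor families that act in NK cells were searched on both strands of the 300-base windows (250 bases before and 50 after the start), and 2 members held any. CTTTGA (TCF1 and LEF1 family) was in 16.0% of 32851 promoter windows and, among the members, in both windows of Klra7, of which the one at the GENCODE start is shown. TGTGGT (RUNX family) was in 16.8% of windows and TCACAC (T-box family) in 14.5%, each among the members in Klra1. Of the 8 windows of the members, 2 held CTTTGA, 1 TGTGGT and 1 TCACAC. The 250 upstream bases are shown for the 2 genes with a match, with CTTTGA or TGTGGT in capitals. The TCACAC match in Klra1 lay in the 50 bases after the start, outside the stretch shown. A link of these motifs to the levels was not tested. A match says only that these letters are present.
Klra7, chr6:130233323-130233572: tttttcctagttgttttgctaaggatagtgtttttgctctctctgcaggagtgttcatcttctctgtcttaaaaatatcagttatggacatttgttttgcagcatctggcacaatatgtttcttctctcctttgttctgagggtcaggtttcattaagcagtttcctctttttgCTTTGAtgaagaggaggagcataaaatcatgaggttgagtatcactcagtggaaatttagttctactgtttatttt
Klra1, chr6:130386875-130387124: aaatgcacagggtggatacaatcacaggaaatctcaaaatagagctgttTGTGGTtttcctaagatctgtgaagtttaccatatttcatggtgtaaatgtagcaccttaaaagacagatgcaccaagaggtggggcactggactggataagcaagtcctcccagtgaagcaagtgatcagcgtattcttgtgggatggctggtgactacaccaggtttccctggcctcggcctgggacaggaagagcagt

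Cells with at least 500 UMIs and under 10% mitochondrial UMIs were kept, which left 9163 control, 12866 IR and 10608 IR+HSO cells. NK cells were those with an Ncr1 UMI and none of Cd3d, Cd3e or Cd3g, and they numbered 337 in control, 1531 in IR and 1046 in IR+HSO. T cells, with at least 2 UMIs of Cd3d, Cd3e and Cd3g together, numbered 3731, 8212 and 6982. B cells, which should lack Ly49 receptors and served as the background, numbered 3717, 215 and 161. The make-up of this background class differed between libraries. In control, IR and IR+HSO its 5 B cell markers summed to 6503, 1209 and 915 CPM. Jchain, which is made by plasma cells, stood in it at 1781, 39302 and 32042 CPM. The part of this make-up in the background Ly49 levels was not tested. Over all NK cells the 7 NK markers Ncr1, Klrb1c, Nkg7, Klrd1, Prf1, Eomes and Tyrobp were present in each library, and Klrb1c, which encodes the NK1.1 antigen, was detected in 86.9% of control, 77.0% of IR and 84.0% of IR+HSO NK cells and in 0.404%, 5.12% and 5.59% of B cells. Median UMIs per NK cell were 4106, 2899 and 3688.5. Levels are given in CPM of all UMIs of the same cells. A UMI marks 1 molecule whatever the transcript's length, so levels of different members are set side by side without a length correction. Of the barcodes, 34 to 54 were shared by any pair of libraries, including 1 NK barcode shared by IR and IR+HSO.

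NK cells were split by Gzma, the granzyme A gene, into cells with at least 3 Gzma UMIs (Gzma-high) and cells with fewer (Gzma-low). The Gzma-high class held 287 control, 1157 IR and 705 IR+HSO cells, or 85.2% (95% Clopper-Pearson interval 80.9 to 88.8), 75.6% (73.3 to 77.7) and 67.4% (64.5 to 70.2) of NK cells. Both classes are ranges of 1 gene, and 4, 153 and 77 NK cells lay within 1 UMI of the cut. The cut was also reached in 0 of 3717 control B cells (with an upper bound of 0.0992%) and in 6.51% of IR and 1.86% of IR+HSO B cells. The part of free Gzma RNA in the split was not tested.

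Gzma-high NK cells expressed the family in all 3 libraries, at a level that was close in control and IR and lower in IR+HSO. The 6 genes together stood at 3148 CPM (3053 to 3245) in control, 2909 CPM (2856 to 2964) in IR and 1998 CPM (1947 to 2049) in IR+HSO. The ratio was 0.924 (0.892 to 0.958) for IR to control, 0.635 (0.610 to 0.660) for IR+HSO to control and 0.687 (0.665 to 0.709) for IR+HSO to IR. Background was far below these levels, at 8.28, 19.0 and 8.39 CPM in B cells. A UMI of any member was found in 95.8%, 90.3% and 85.1% of Gzma-high cells, against 3.28%, 18.6% and 7.45% of B cells, whose median UMI counts were 3665, 7212 and 8349. After each cell was thinned to 1000 UMIs the shares of Gzma-high cells were 84.6% (79.9 to 88.6), 82.3% (79.9 to 84.5) and 69.7% (66.1 to 73.2), so the lower share in IR+HSO also held at equal depth. Thinning left out 1, 85 and 28 shallower Gzma-high cells.

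The activating members made up most of the family's UMIs in these cells. Klra4 stood at 1111 CPM in control, 964 CPM in IR and 671 CPM in IR+HSO. It was lower in IR than in control by a ratio of 0.868 (0.817 to 0.923), and lower in IR+HSO than in IR by 0.696 (0.659 to 0.735). Klra4 had the most UMIs per expressing cell of the 6 genes, with means of 9.19, 5.83 and 5.58. Klra8, whose product recognises the cytomegalovirus protein, stood at 827, 676 and 504 CPM. Its ratio was 0.818 (0.762 to 0.879) for IR to control and 0.746 (0.699 to 0.796) for IR+HSO to IR. Both activating genes were thus ordered control, IR, IR+HSO. Together they held 61.5%, 56.4% and 58.8% of the family's UMIs in Gzma-high cells.

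The inhibitory members followed 2 patterns across the libraries. Klra9, which encodes Ly49I, stood at 536 CPM in control, 462 CPM in IR and 275 CPM in IR+HSO. Klra3, which encodes Ly49C, stood at 289, 248 and 169.8 CPM. Both were ordered as the activating genes were, with ratios of IR+HSO to IR of 0.596 (0.548 to 0.648) for Klra9 and 0.685 (0.613 to 0.764) for Klra3. Klra9 had the lowest ratio of IR+HSO to control among the 6, 0.513 (0.464 to 0.569).

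Klra7 and Klra1 were instead highest in IR. Klra7, which encodes Ly49G, stood at 303 CPM in control, 439.5 CPM in IR and 287 CPM in IR+HSO. Klra1, which encodes Ly49A, was the least abundant member and stood at 82.4, 119.7 and 89.9 CPM. The ratio of IR to control was 1.45 (1.30 to 1.62) for Klra7 and 1.45 (1.18 to 1.81) for Klra1, whereas the other 4 genes had ratios below 1. For IR+HSO to control the intervals of both included 1, with ratios of 0.947 (0.840 to 1.07) for Klra7 and 1.09 (0.870 to 1.38) for Klra1. Klra7 accordingly made up 9.63% of the family's UMIs in control, 15.1% in IR and 14.4% in IR+HSO. The share of thinned cells with Klra7 was likewise highest in IR, 27.6% (25.0 to 30.4), against 17.8% (13.6 to 22.8) in control and 18.0% (15.2 to 21.1) in IR+HSO. For Klra1 the thinned shares were 5.94% (3.50 to 9.35), 7.37% (5.88 to 9.10) and 6.65% (4.89 to 8.79), which overlap.

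**Figure D1:**
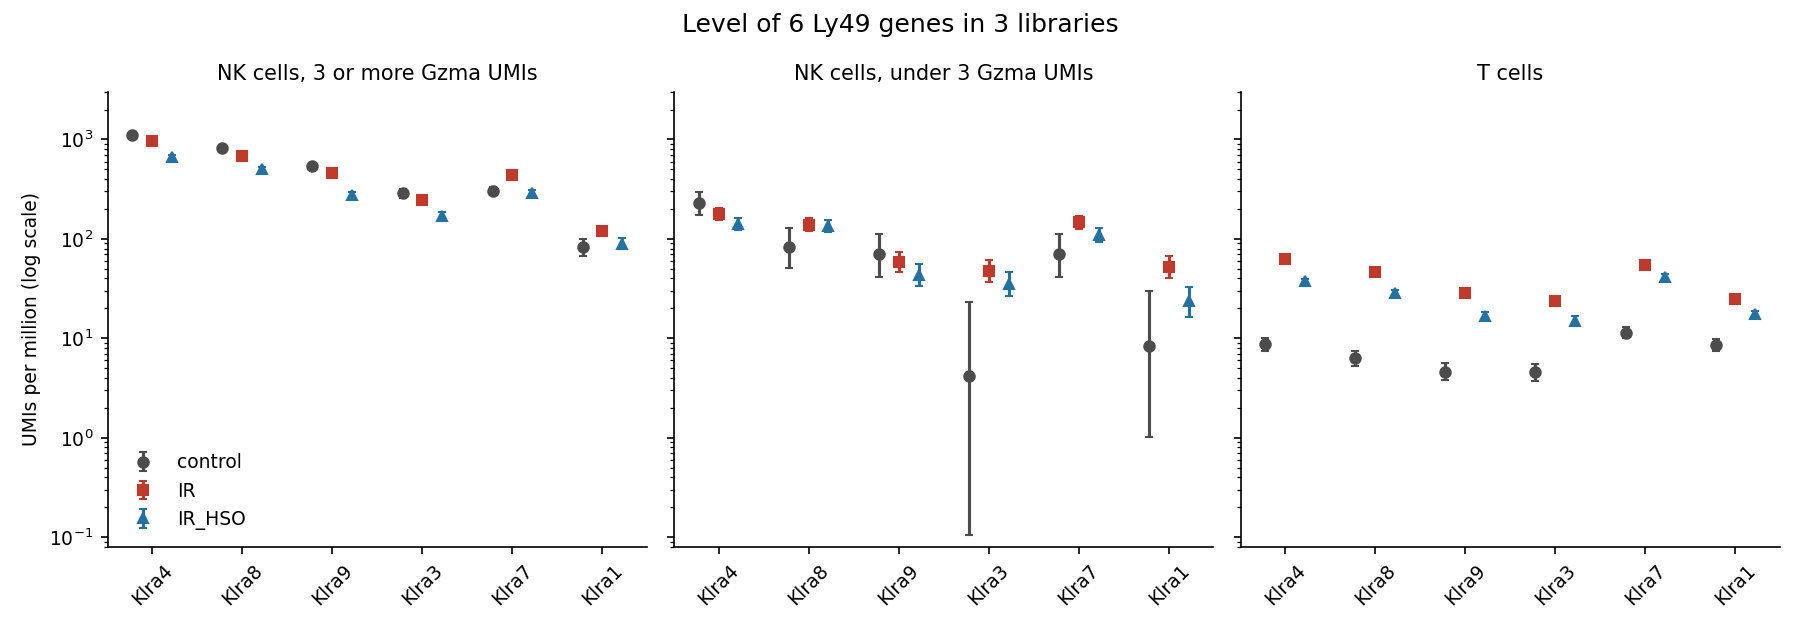
Levels of the 6 Ly49 genes in CPM on a log axis, in NK cells with 3 or more Gzma UMIs, NK cells with fewer, and T cells, with 1 point per library and exact Poisson 95% intervals. In Gzma-high NK cells Klra4 reads 1111, 964 and 671 in control, IR and IR+HSO, while Klra7 reads 303, 439.5 and 287.

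The differences in level of Klra4, Klra8, Klra9 and Klra3 between IR and IR+HSO appeared in the share of cells with the gene. For Klra4 and Klra8 they also appeared in the CPM of the cells with a UMI of the gene. Klra4 UMIs per such cell were close in the 2 libraries, where median UMIs per Gzma-high cell were 2944 in IR and 3595 in IR+HSO. Klra4 was detected in 55.7% of control, 55.0% of IR and 49.9% of IR+HSO Gzma-high cells, and in 44.8% (38.9 to 50.7), 43.5% (40.5 to 46.5) and 32.8% (29.3 to 36.5) after thinning. Klra8 was detected in 59.6%, 53.9% and 49.4%, and after thinning in 42.7%, 38.8% and 31.2%. Klra9 was detected in 56.4%, 43.9% and 37.7%, and after thinning in 35.7% (30.1 to 41.5), 29.3% (26.6 to 32.1) and 20.7% (17.7 to 23.9). For these 3 genes the thinned share in IR+HSO was below that in IR with intervals that did not overlap. Klra3 was detected in 39.7%, 29.3% and 25.8%, and after thinning in 22.4%, 16.9% and 11.5%. Within the cells that had a UMI of the gene, Klra4 stood at 1953 CPM in control, 1619 CPM in IR and 1296 CPM in IR+HSO. The same measure for Klra8 was 1309, 1178 and 956 CPM. It is not given here for Klra9 and Klra3, so no contrast between the genes is drawn from it.

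**Figure D2:**
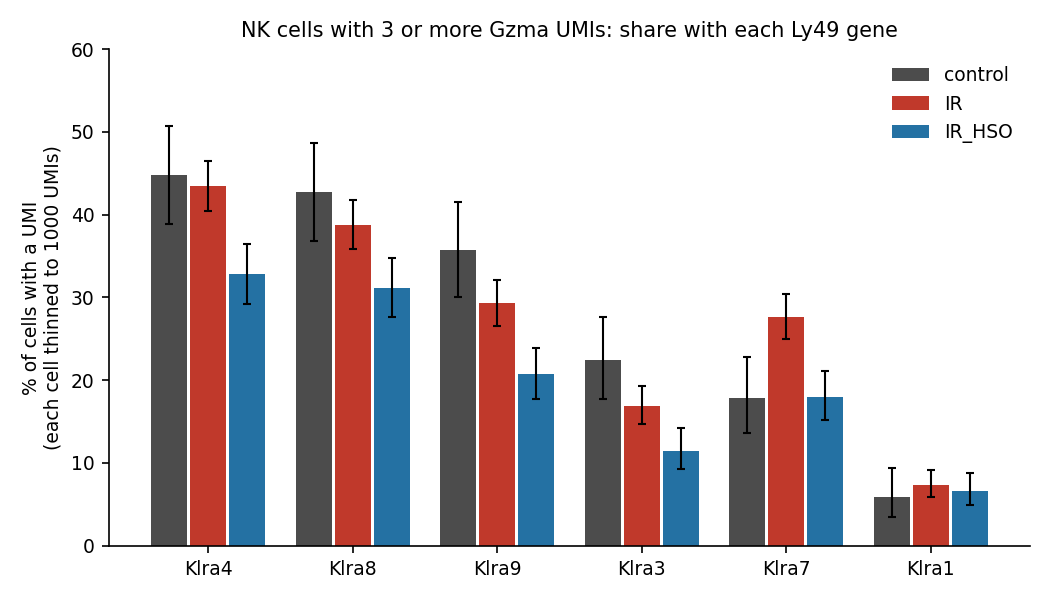
Share of Gzma-high NK cells with a UMI of each Ly49 gene after each cell was thinned to 1000 UMIs, as bars from 0 with exact Clopper-Pearson 95% intervals, 1 bar per library. The share with Klra4 is 44.8% in control, 43.5% in IR and 32.8% in IR+HSO, and the share with Klra7 is highest in IR, at 27.6%.

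Counts of members past a 1.5-fold difference, among genes at 5 CPM or more in either library, were read against the share of all such genes. Between IR and control in Gzma-high cells none of the 6 passed, where 10.4% of genes were higher and 11.4% lower. The members' median log2 ratio, with 1 CPM added, was -0.21, and that of all genes was -0.04. Between IR+HSO and control 4 of 6 were lower (Klra3, Klra4, Klra8 and Klra9), and none higher, where 15.6% of all genes were lower and 14.0% higher. The median was -0.72 for the members and -0.08 for all genes. Between IR+HSO and IR 2 of 6 were lower (Klra7 and Klra9) and none higher, where 6.94% of all genes were lower and 7.12% higher. The median was -0.53 for the members and -0.04 for all genes. Over all NK cells the counts were 0 of 6 for IR against control (10.7% of genes higher and 11.0% lower), 4 lower and none higher for IR+HSO against control (14.6% and 15.0% of genes), and 5 lower and none higher for IR+HSO against IR (5.50% and 7.30% of genes). Gzma-low cells made up 14.8%, 24.4% and 32.6% of NK cells in control, IR and IR+HSO. These comparisons share libraries and do not count as separate evidence.

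Other NK genes differed in the same Gzma-high cells. The 7 NK markers summed to 10663, 10869 and 7925 CPM in control, IR and IR+HSO, and Tyrobp, the adaptor of the activating receptors, stood at 2881, 2666 and 1864 CPM. Transcripts of other cell types also differed. Markers of B cells summed to 489.6, 27.8 and 18.1 CPM, and Jchain, which is made by plasma cells, stood at 26.4, 1239 and 1322 CPM. The 5 pancreatic enzyme markers summed to 3.02, 1646 and 356 CPM. The erythroid genes Hbb-bs and Hba-a1 summed to 3342, 0.260 and 0.342 CPM, and 4 monocyte and macrophage markers to 169, 2.86 and 5.13 CPM. The part of erythroid and monocyte RNA in the family's levels was not tested. Without NK cells that carried a B cell UMI the family stood at 3430.0, 3012 and 2048 CPM in Gzma-high cells, and without cells carrying more than 10 UMIs of Jchain or of pancreatic markers at 3148, 3003 and 2041 CPM. The order of the libraries was the same in each case.

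Before thinning, 2 or 3 of the 6 genes were most often detected in single Gzma-high cells. At 1000 UMIs per cell the most common number was 2 in control (32.5%) and IR (31.6%) and 1 in IR+HSO (32.3%). The mean number detected was 2.59 ± 1.23 in control, 2.33 ± 1.27 in IR and 2.10 ± 1.30 in IR+HSO (SD over cells, not over mice). At 1000 UMIs per cell the means were 1.69, 1.63 and 1.21. Cells with none of the 6 made up 4.18%, 9.68% and 14.9%, and after thinning 15.4% (11.4 to 20.1), 17.7% (15.5 to 20.1) and 30.3% (26.8 to 33.9). A cell with all 6 was rare, with 1 control, 3 IR and 0 IR+HSO cells (the last with an upper bound of 0.522%). Of the combinations of the 6 genes, 48, 62 and 57 were seen in the 3 libraries.

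Many cells carried activating and inhibitory genes together. Cells with both kinds made up 67.9% of control, 63.4% of IR and 57.7% of IR+HSO Gzma-high cells, and 43.0%, 42.3% and 26.7% at 1000 UMIs per cell. Cells with activating members alone made up 9.06%, 11.0% and 10.5%, and cells with inhibitory members alone 18.8%, 16.0% and 16.9%. After thinning these shares were 22.4%, 21.1% and 23.6%, and 19.2%, 18.9% and 19.4%. The share with both kinds was lowest in IR+HSO before and after thinning, beside the larger share with none.

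**Figure D3:**
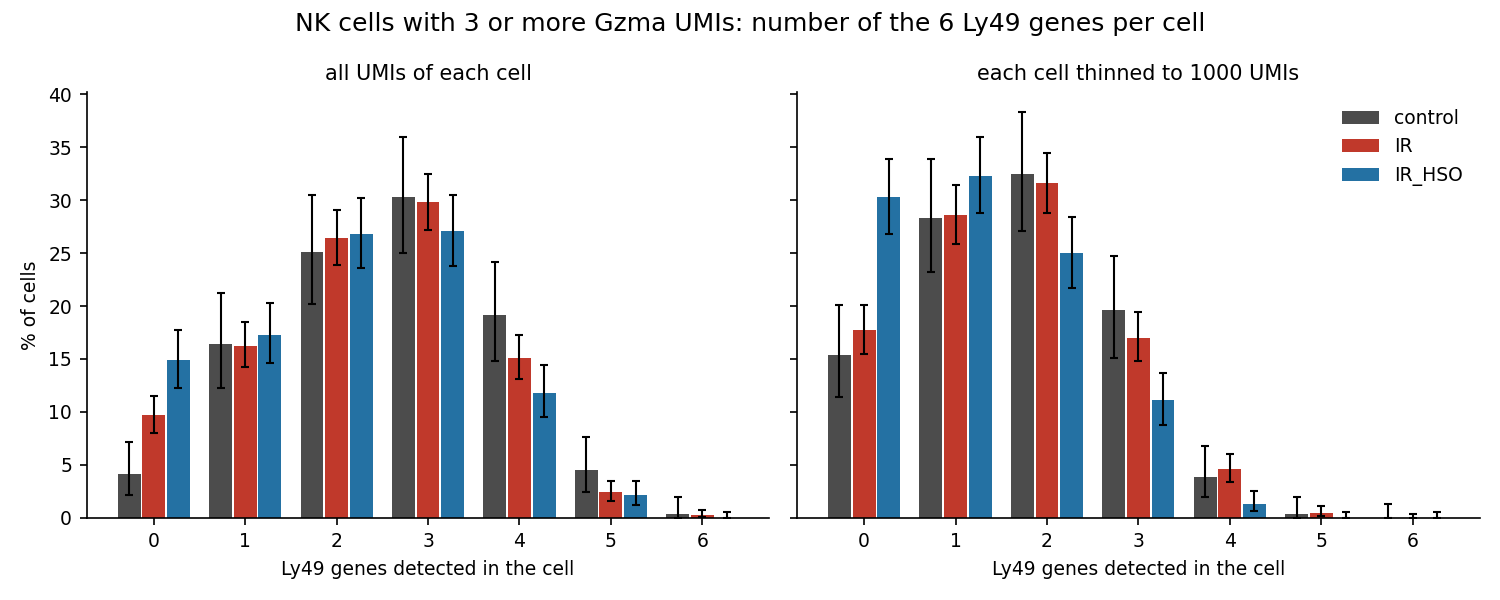
Share of Gzma-high NK cells with 0 to 6 Ly49 genes detected, from all UMIs of each cell and after thinning to 1000 UMIs, as bars with exact Clopper-Pearson 95% intervals, 1 bar per library. Cells with none of the 6 make up 4.18% in control, 9.68% in IR and 14.9% in IR+HSO before thinning.

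Several pairs of members were found in the same cell more or less often than the product of their shares. For each pair, the share of Gzma-high cells with both genes was divided by the product of the 2 single shares, in the 3 libraries and both before and after thinning, giving 6 values per pair. Of 15 pairs, 7 stood above 1 in all 6 values, 3 stood below 1 in all 6, and 5 were mixed. The activating pair Klra4 and Klra8 was found together in 38.3% of control, 34.6% of IR and 31.1% of IR+HSO cells, where the products were 33.2%, 29.6% and 24.6%, and its 6 ratios ran from 1.12 to 1.33. Klra7 was found with Klra4 (1.10 to 1.30) and with Klra8 (1.11 to 1.27) above the product, and Klra1 likewise with Klra4 (1.11 to 1.71) and Klra8 (1.05 to 1.38). Klra3 exceeded the product with Klra8 (1.09 to 1.28) and with Klra9 (1.04 to 1.18). Klra9 gave all 3 pairs below the product, with Klra1 (0.607 to 0.897), Klra4 (0.789 to 0.974) and Klra7 (0.770 to 0.947). After thinning, Klra1 and Klra9 were found together in only 5 control and 7 IR+HSO cells. Over all NK cells before thinning, the same 3 Klra9 pairs stood at 0.720, 0.937 and 1.09 in control. There they stood at 1.06, 1.13 and 1.08 in IR and at 0.925, 1.22 and 1.09 in IR+HSO. These are descriptions of 3 libraries, the values before and after thinning come from the same cells, and cells of a library are not replicates.

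**Figure D4:**
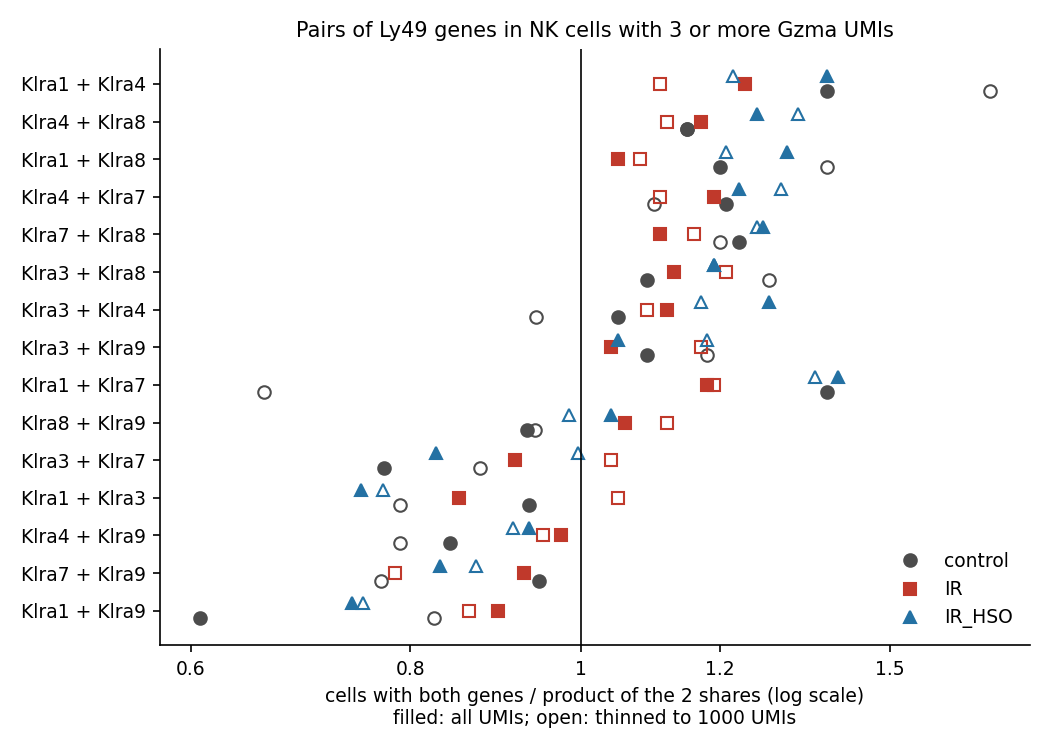
Observed share of Gzma-high NK cells with both genes of a pair divided by the product of the single shares, on a log axis with a line at 1, for 15 pairs and 3 libraries, filled before and open after thinning to 1000 UMIs. Klra4 with Klra8 lies between 1.12 and 1.33, and Klra1 with Klra9 between 0.607 and 0.897.

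Gzma-low NK cells carried less of every member than Gzma-high cells in each library. The family stood at 466 CPM (384 to 561) in 50 control cells, 623 CPM (581 to 668) in 374 IR cells and 489 CPM (454 to 525) in 341 IR+HSO cells. The ratio of Gzma-high to Gzma-low was 6.75 (5.60 to 8.22), 4.67 (4.34 to 5.02) and 4.09 (3.79 to 4.42). All 6 members passed 1.5-fold upward in Gzma-high cells of each library, as did 27.0%, 11.0% and 7.64% of all genes, while 23.0%, 14.6% and 16.3% of genes passed it downward. In IR the ratio ran from 2.28 (1.76 to 2.99) for Klra1 and 2.98 (2.56 to 3.48) for Klra7 to 7.85 (6.23 to 10.0) for Klra9. In IR+HSO it ran from 2.62 (2.22 to 3.11) for Klra7 to 6.30 (4.91 to 8.21) for Klra9. Klra9 thus had the largest ratio of the 6 in both irradiated libraries.

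In the control library the Gzma-low class was small and its Ly49 RNA lay in few cells. A Ly49 UMI was present in 12 of its 50 cells, and 5 cells held 83.0% of the family's UMIs. The NK label was weaker for this class than for Gzma-high cells in all libraries, and weakest in control. In Gzma-high cells Klrb1c was detected in 95.5%, 83.7% and 88.8% of control, IR and IR+HSO cells. The values that follow are those of Gzma-low cells. The 7 NK markers summed to 2496 CPM in control, 4717 CPM in IR and 3699.8 CPM in IR+HSO, which was below the B cell markers in control and below the pancreatic markers in both irradiated libraries. Klrb1c was detected in 38.0% of control cells, against 56.4% in IR and 74.2% in IR+HSO, and B cell markers summed to 3532 CPM there, against 175 and 28.7 CPM. Without NK cells carrying a B cell UMI the Gzma-low level was 762 CPM in 22 control cells, 782 CPM in IR and 517 CPM in IR+HSO, so that control stood above IR+HSO instead of slightly below it. The control ratio of Gzma-high to Gzma-low was 4.50 without NK cells carrying a B cell UMI, 3.89 where NK cells were called by Klrb1c and 2.40 where they needed 2 Ncr1 UMIs. Jchain stood at 429, 7242 and 786 CPM and pancreatic markers at 4.16, 5081 and 12525 CPM in the Gzma-low cells of control, IR and IR+HSO. Without cells carrying more than 10 UMIs of either, 49, 357 and 332 cells were left. In these the family stood at 485, 734 and 529 CPM, in the same order of libraries. A type 1 innate lymphoid list (Cxcr6, Itga1, Il7r, Cd200r1 and Tnfsf10) summed to 412, 1061 and 1608 CPM in Gzma-low and 41.6, 164 and 315 CPM in Gzma-high cells.

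In Gzma-low cells the members did not share 1 order of the libraries. Klra4 stood at 229, 178 and 142 CPM in control, IR and IR+HSO, and Klra9 at 70.7, 58.8 and 43.7 CPM. Klra8 stood at 83.2, 139 and 135 CPM, and Klra7 at 70.7, 147 and 109.6 CPM. Klra3 and Klra1 rested on 1 and 2 UMIs in control, and stood at 47.8 and 52.5 CPM in IR and 35.2 and 23.5 CPM in IR+HSO. Of the 6 members, 4 passed 1.5-fold upward (26.5% of all genes) and none downward (23.0%) between IR and control, 4 were higher (29.4%) and 2 lower (21.3%) in IR+HSO than in control, and 1, Klra1, was lower and none higher in IR+HSO than in IR (10.2% and 14.3%). The share of cells with 3 or more family UMIs was 16.0% (7.17 to 29.1), 19.8% (15.9 to 24.2) and 18.8% (14.8 to 23.3), with intervals that overlapped.

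T cells carried far less of the family, and all 6 members were higher in T cells of both irradiated libraries than in control. The sum stood at 44.2 CPM in control, 240.5 CPM in IR and 157 CPM in IR+HSO. The ratio was 5.44 (5.10 to 5.81) for IR to control, 3.56 (3.32 to 3.81) for IR+HSO to control and 0.653 (0.630 to 0.677) for IR+HSO to IR. All 6 members passed 1.5-fold upward from control in IR (10.5% of all genes, with 3.86% downward) and in IR+HSO (17.2%, with 6.31% downward). Between IR+HSO and IR, 4 members were lower and none higher (4.73% and 6.48% of genes). The members' median log2 ratios were 2.28, 1.72 and -0.65, beside 0.10, 0.14 and 0.04 for all genes. Among the activating genes Klra4 stood at 8.69, 62.4 and 37.6 CPM and Klra8 at 6.29, 46.1 and 28.5 CPM, with ratios of IR to control of 7.18 and 7.33. These were the highest of the 6 ratios. Among the inhibitory genes Klra7 stood at 11.4, 55.2 and 41.7 CPM, Klra9 at 4.63, 28.4 and 16.8 CPM, and Klra3 at 4.59, 23.6 and 15.1 CPM. Klra1 showed the lowest ratio, 2.89, from 8.56 CPM in control to 24.8 CPM in IR.

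B cells gave a background against which the T cell signal was read. A Ly49 UMI was found in 6.94%, 25.1% and 16.7% of T cells and in 3.28%, 18.6% and 7.45% of B cells, whose background also differed between libraries. At 1000 UMIs per cell the shares were 2.45%, 11.6% and 7.39% in T cells and 0.919%, 5.16% and 1.25% in B cells. T cells held 0.271, 1.05 and 0.676 family UMIs per cell, against 0.0361, 0.205 and 0.0870 in B cells, and T cells without a UMI of the chemokine gene Ccl5 held 0.0352, 0.204 and 0.101. Per cell, T cells without Ccl5 thus stood close to the B cells of their library, but irradiated B cells were deeper. In CPM they stood at 6.18, 56.7 and 28.5 against 8.28, 19.0 and 8.39 in B cells, and at 1000 UMIs per cell the shares with a UMI were 0.469%, 5.34% and 2.97% against 0.919% (0.637 to 1.28), 5.16% (2.61 to 9.05) and 1.25% (0.152 to 4.44). Median UMIs per T cell were 5479, 3587 and 3569. A stricter measure, the share of cells with 3 or more family UMIs, was 2.55% (2.06 to 3.10), 7.95% (7.38 to 8.56) and 5.77% (5.24 to 6.34) in T cells, against 0.0807%, 0.465% and 0.621% in B cells. By that measure the ratio was 3.12 for IR to control and 2.27 for IR+HSO to control, and by UMIs per cell minus those per B cell it was 3.58 and 2.51.

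Much of the family's RNA in T cells came from cells that also carried an Ncr1 UMI. They numbered 61, 966 and 516, or 1.63%, 11.8% and 7.39% of T cells, and held 44.9%, 67.0% and 58.4% of the T cells' Ly49 UMIs. Their Ly49 level was 920.3, 999.6 and 750.2 CPM, and the activating genes made up 57.0%, 50.8% and 52.5% of it, against 61.7%, 56.0% and 58.6% in NK cells. Their median UMI counts were 6736, 4976 and 6058, above those of all T cells, and a doublet score placed 32.8%, 32.6% and 37.4% of them among the cells it would remove, against 9.17%, 11.0% and 9.65% of all T cells. The part of doublets of an NK and a T cell in these values was not tested beyond that.

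T cells without an Ncr1 UMI still differed between the libraries. The family stood at 24.9 CPM (22.9 to 27.1) in control, 94.7 CPM (91.2 to 98.2) in IR and 74.4 CPM in IR+HSO, with ratios of 3.80 for IR to control and 2.99 for IR+HSO to control. The differences from control were smaller by the share of cells with 3 or more family UMIs, at 1.69%, 3.30% and 2.83%. Family UMIs per cell were 0.152, 0.391 and 0.303. B cells held more of them per cell in IR than in IR+HSO, and no background was subtracted in this class. The activating share was 15.1%, 33.6% and 27.4%, lower than in NK cells of each library. In control these T cells carried mainly Klra7 (8.03 CPM) and Klra1 (7.27 CPM), with Klra4 at 1.92 CPM. In IR the same genes stood at 26.6, 16.2 and 17.9 CPM, and in IR+HSO at 25.3, 13.0 and 9.86 CPM.

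T cells with a Cd8a or Cd8b1 UMI and none of Cd4 carried 0.283, 1.58 and 0.915 family UMIs per cell in control, IR and IR+HSO, or 42.6, 305 and 178 CPM. T cells with a Cd4 UMI and no CD8 gene carried 0.0709, 0.732 and 0.426, or 11.9, 155 and 94.7 CPM. T cells with none of these 3 genes carried 0.559, 1.17 and 0.825, or 109, 303 and 214 CPM, and held 50.8%, 59.9% and 59.3% of the T cells' family UMIs. The CD8 class was higher than the Cd4 class in every library by both measures. These classes include T cells with an Ncr1 UMI, whose part in each class was not measured. Activating genes made up 44.7%, 54.0% and 50.0% of the family's UMIs in the Cd4 class and 27.7%, 34.8% and 27.0% in the CD8 class. In CPM the class with neither stood above the CD8 class in control and IR+HSO and level with it in IR. By UMIs per cell it stood above the CD8 class in control and below it in IR and IR+HSO. Klra6, a further family gene that CD8 T cells are also known to express, stood at 7.87, 40.7 and 22.4 CPM in the CD8 class.

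**Figure D5:**
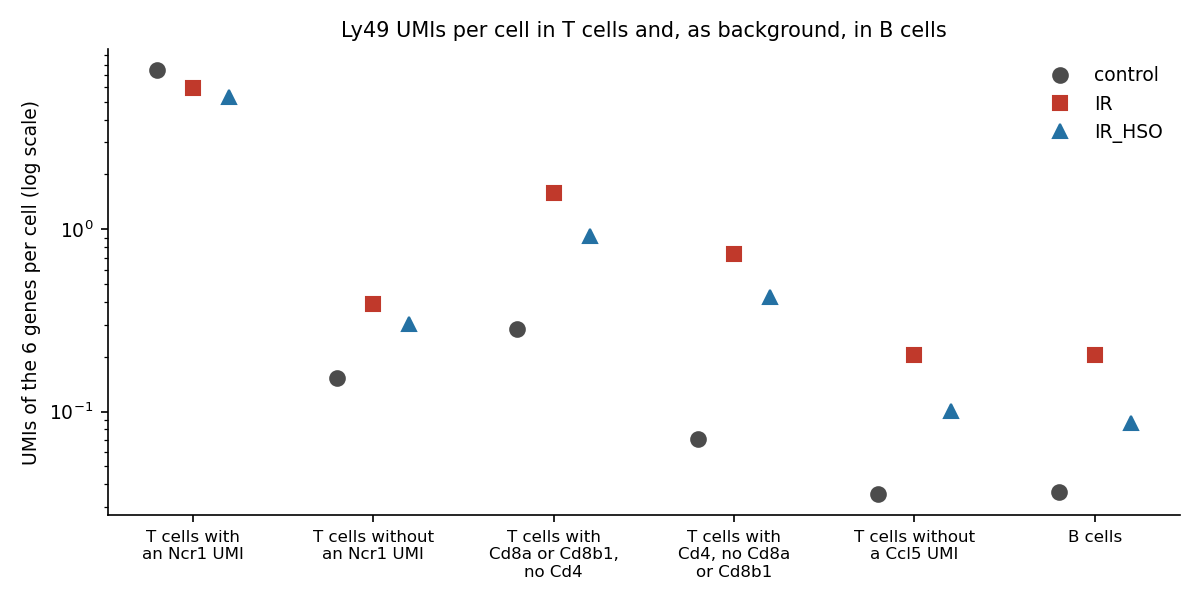
UMIs of the 6 Ly49 genes per cell on a log axis, in classes of T cells and, as background, in B cells, 1 point per library and no error bars. T cells with an Ncr1 UMI read 7.44 in control, 5.96 in IR and 5.35 in IR+HSO, T cells without one 0.152, 0.391 and 0.303, and B cells 0.0361, 0.205 and 0.0870.

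Of 8 further Klra features, 3 reached 5 CPM in NK cells of any library, and they split in direction. Klra5 stood at 21.1, 11.5 and 7.62 CPM and Klra10 at 15.3, 8.01 and 5.16 CPM in control, IR and IR+HSO. Klra6 stood at 7.03, 18.0 and 12.1 CPM, a ratio of 2.56 (1.36 to 5.30) for IR to control, from 11 control UMIs. The ratio of IR to control was 0.546 (0.351 to 0.864) for Klra5.

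Lists of genes around the Ly49 system were examined over all NK cells, counting genes at least 1.5-fold higher or lower. Of all genes 10.7% were higher and 11.0% lower in IR than in control, 15.0% and 14.6% in IR+HSO than in control, and 7.30% and 5.50% in IR+HSO than in IR. Of 14 other receptors of the NK gene complex, 3 were higher and 1 lower in IR than in control, 2 higher and 4 lower in IR+HSO than in control, and 1 higher and 5 lower in IR+HSO than in IR. Klre1, a lectin-like receptor that pairs with other receptors of the complex, stood at 400.3 CPM in IR+HSO against 794 CPM in IR and 1190.1 CPM in control. Klrg1, an inhibitory receptor of mature cells, stood at 82.5, 43.2 and 23.3 CPM in control, IR and IR+HSO. Klrb1b, an inhibitory receptor, went the other way, at 78.0, 131 and 234 CPM, and Klrb1a stood at 168 CPM in control and 275 CPM in IR.

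Of 13 adaptors and signalling genes, 3, 4 and 1 were lower in the same 3 comparisons (11.0%, 14.6% and 5.50% of all genes) and none was higher. Ptpn6, the phosphatase recruited by inhibitory Ly49 receptors, stood at 175, 88.7 and 64.8 CPM in control, IR and IR+HSO. Syk, a kinase downstream of Tyrobp, stood at 169, 85.0 and 74.5 CPM. Of 10 genes of class I ligands and their assembly, 2, 3 and 0 were higher (10.7%, 15.0% and 7.30% of all genes) and none was lower. Tap1, which transports peptides for class I, stood at 79.3, 128 and 151 CPM, and Nlrc5, which activates class I genes, at 46.7, 71.7 and 97.8 CPM. The class I heavy chain H2-K1 stood at 2531, 3269.8 and 2635 CPM and did not reach 1.5-fold.

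Of 15 measured NK transcription factors, 3 were higher and 1 lower in IR than in control, 3 higher and 6 lower in IR+HSO than in control, and 2 higher and 2 lower in IR+HSO than in IR. Of all genes 10.7% were higher and 11.0% lower, 15.0% and 14.6%, and 7.30% and 5.50%, in the same 3 comparisons. Zeb2, a factor of late NK maturation, stood at 810.2, 435 and 220.2 CPM, and Eomes, which is required for conventional NK cells, at 359, 259 and 161 CPM. Ikzf2 went the other way, at 29.4, 52.4 and 81.2 CPM. Of 12 maturation genes, 2 were higher and 6 lower, 3 higher and 6 lower, and 2 higher and 3 lower in the 3 comparisons, beside the same shares of all genes. S1pr1, which lets lymphocytes leave tissue, stood at 87.0, 28.9 and 22.2 CPM, and the mast cell protease gene Cma1 at 207, 111 and 47.5 CPM. Gzmb, a granzyme of activated cells, stood at 295, 1222 and 1281 CPM.

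Of 10 innate lymphoid genes, 8 were higher in IR and 8 in IR+HSO than in control, and 4 were higher and 1 lower in IR+HSO than in IR, where 10.7%, 15.0%, 7.30% and 5.50% of all genes were. In Gzma-high cells alone 6 of 9 measured genes were higher and 1 lower in both comparisons with control. Il7r, the interleukin-7 receptor chain, stood at 63.9, 311 and 666 CPM, and Tmem176a at 16.6, 114 and 209.9 CPM. The Gzma-low share of NK cells was ordered in the same way over the libraries, and its part in the levels over all NK cells was not tested beyond the counts in Gzma-high cells.

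The genes whose profile was most like that of the summed family were ranked by Pearson's r of log2(CPM + 1) over 12 profiles, the Gzma-high NK, Gzma-low NK, T and B cells of 3 libraries, among 8310 genes. The first 5 were Klre1 (0.994), Arl4d (0.991), Itga2 (0.990), Cd200r4 (0.989) and Arsb (0.988). Itga2, which encodes the integrin bearing the DX5 antigen of mature NK cells, stood at 302, 234 and 213 CPM in Gzma-high cells of control, IR and IR+HSO and at 58.3, 77.6 and 68.5 CPM in Gzma-low cells. The 12 profiles share libraries and cell classes, so these values describe likeness only.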

How the data were processed

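Gene-by-cell count matrices of 3 spleen libraries, made by the authors, were used as deposited. They hold UMI counts from Cell Ranger 7.0.1, per the file headers, on GRCm39, per the submitters' processing notes. Read length and library chemistry are not given in the sources used here. Libraries held 9520, 13509 and 12710 barcodes and 47298108, 50836313 and 45636807 UMIs in control, IR and IR+HSO.

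UMIs were summed per library and class with Python 3.11.15 and NumPy 2.4.6. Poisson, Clopper-Pearson and conditional ratio intervals (95%) came from SciPy 1.17.1. Only the ratio intervals were run on simulated data. The simulation held counting error alone, so it cannot show how they hold where UMIs cluster in cells. B cells had at least 2 UMIs of Cd79a, Cd79b and Ms4a1 and no Cd3d, Cd3e, Cd3g or Ncr1. No doublets were removed in the reported values. A Scrublet-type score, taking the top 0.8% per 1000 cells, was an alternative. Members and lists were chosen with earlier results of these data known. The text names up to 4 genes per list and comparison, at least 1.5-fold different with an interval leaving out 1, further Klra genes at 5 CPM or more in NK cells, and the 5 genes most like the family. H2-K1, Klra2, Klra14-ps and Klra17 were named after their values were seen. Shared sequence was measured in 90-base windows of GRCm38 transcripts.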

Additional observations from a re-analysis of the deposited data

Results flagged for a closer look

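The family's difference from control had opposite signs in T cells and in NK cells. The difference was not tested, since each library stands alone, and each value below is the log2 ratio in T cells minus the log2 ratio in NK cells of the same 2 libraries. For IR against control it was 2.67 for the summed family, which stood at a ratio of 5.44 in T cells and 0.855 in NK cells. Among the members it was 2.67 for Klra3, 3.18 for Klra4, 3.26 for Klra8 and 2.98 for Klra9. Klra7 and Klra1 were higher in both cell types and gave no opposite signs in this comparison. For IR+HSO against control it was 2.72 for the sum, at ratios of 3.56 and 0.541, and 2.71 for Klra3, 3.11 for Klra4, 2.11 for Klra7, 3.10 for Klra8 and 3.11 for Klra9. Klra1 also had opposite signs there, at ratios of 2.04 in T cells and 0.945 (0.757 to 1.19) in NK cells, but its interval in NK cells included 1. In IR+HSO against IR none of the 6 members had opposite signs. T cells with an Ncr1 UMI made up 1.63%, 11.8% and 7.39% of T cells in control, IR and IR+HSO. Their part in these differences was measured only by leaving them out, which gave CPM ratios to control of 3.80 in IR and 2.99 in IR+HSO T cells.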

How the results depend on the processing

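Every result below is a log2 ratio of the summed family, and 9 such ratios were recomputed under 126 alternatives in all. None reversed, 62 stayed inside the counting interval of the reported value and 64 left it. The single members gave 252 alternative values over 36 ratios, of which 224 stayed inside, 28 left it and 0 reversed. The cause of each move was not tested. The values outside the interval were as follows. In NK cells, IR against control, it was -0.23 as reported, -0.17 with selected genes left out of the scaling, -0.10 with the share of thinned cells with a UMI, -0.28 with 2 Ncr1 UMIs, -0.34 with no B cell UMI, -0.32 with the share of cells with 3 UMIs, -0.11 with Gzma-high cells only. In NK cells, IR+HSO against control, it was -0.89 as reported, -0.73 with selected genes left out of the scaling, -0.83 with median centring, -0.46 with the share of thinned cells with a UMI, -0.97 with NK cells called by Klrb1c, -0.94 with 2 Ncr1 UMIs, -1.06 with no B cell UMI, -0.57 with the share of cells with 3 UMIs, -0.66 with Gzma-high cells only. In NK cells, IR+HSO against IR, it was -0.66 as reported, -0.56 with selected genes left out of the scaling, -0.36 with the share of thinned cells with a UMI, -0.72 with no B cell UMI, -0.25 with the share of cells with 3 UMIs, -0.54 with Gzma-high cells only. In T cells, IR against control, it was 2.44 as reported, 2.31 with likely doublets removed, 2.34 with median centring, 2.62 with the B cell level subtracted, 2.28 with thinning, 2.24 with the share of thinned cells with a UMI, 2.33 with 3 Cd3 UMIs, 1.93 with no Ncr1 UMI, 1.64 with the share of cells with 3 UMIs, 1.84 with per-cell B cell UMIs subtracted. In T cells, IR+HSO against control, it was 1.83 as reported, 1.69 with median centring, 2.05 with the B cell level subtracted, 1.5 with thinning, 1.59 with the share of thinned cells with a UMI, 1.58 with no Ncr1 UMI, 1.18 with the share of cells with 3 UMIs, 1.32 with per-cell B cell UMIs subtracted. In T cells, IR+HSO against IR, it was -0.61 as reported, -0.54 with likely doublets removed, -0.56 with selected genes left out of the scaling, -0.78 with thinning, -0.55 with 3 Cd3 UMIs, -0.35 with no Ncr1 UMI, -0.46 with the share of cells with 3 UMIs, -0.51 with per-cell B cell UMIs subtracted. In NK cells, Gzma-high against Gzma-low, control, it was 2.76 as reported, 2.44 with thinning, 2.22 with the share of thinned cells with a UMI, 1.96 with NK cells called by Klrb1c, 1.27 with 2 Ncr1 UMIs, 2.19 with a Gzma cut of 10, 2.17 with no B cell UMI. In NK cells, Gzma-high against Gzma-low, IR, it was 2.22 as reported, 2.33 with under 5% mitochondrial UMIs, 2.04 with selected genes left out of the scaling, 2.06 with thinning, 1.51 with the share of thinned cells with a UMI, 2.07 with 2 Ncr1 UMIs, 1.72 with a Gzma cut of 10, 1.95 with no B cell UMI, 1.97 with the share of cells with 3 UMIs, 2.03 with no Jchain or pancreatic RNA. In NK cells, Gzma-high against Gzma-low, IR+HSO, it was 2.03 as reported, 2.20 with under 5% mitochondrial UMIs, 1.88 with thinning, 1.58 with the share of thinned cells with a UMI, 1.86 with 2 Ncr1 UMIs, 1.77 with a Gzma cut of 10, 1.85 with the Gzma cut in thinned cells, 1.90 with the share of cells with 3 UMIs. The alternatives without NK cells carrying a B cell UMI, with the share of cells with 3 UMIs, with Gzma-high cells only, with per-cell B cell UMIs subtracted, without shared barcodes and without Jchain or pancreatic RNA were chosen after seeing the data. The scaling alternative left out mitochondrial, ribosomal protein, immunoglobulin and pancreatic genes.

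Of 108 alternative counts for the gene lists, 83 stayed within 1.5 times the reported count and 25 did not. At a 2-fold difference, IR against control had 0 receptors of the NK complex, 0 signalling genes, 0 class I genes and 0 transcription factors higher or lower and 3 maturation genes lower, and IR+HSO against IR had 0 of the first 4 lists and 1 maturation gene lower and 1 innate lymphoid gene higher. At a 2-fold difference, IR+HSO against control had 1 receptor, 1 class I gene and 1 transcription factor higher and 2 transcription factors lower. These 2-fold counts are not complete. In IR+HSO against control further genes passed 2-fold in both directions. Lower were Klrg1 (ratio 0.283), Klre1 (0.336), Klrc3 (0.440), Ptpn6 (0.371), Syk (0.439), Lck (0.458), Cma1 (0.229) and S1pr1 (0.255). Higher were Gzmb (4.35), Il7r (10.4), Tmem176a (12.6), Tmem176b (11.9) and Cd200r1 (9.82). In IR against control Gzmb (4.15), Il7r (4.87), Tmem176a (6.84), Tmem176b (6.52) and Inpp4b (5.21) were also higher. These further genes are examples and not a full list. The share of all genes past 2-fold is not given here. No paired analysis was possible because each group was 1 library and the labels give no replicate numbers. With 1 library per group, depth limits only the counting error, and differences between mice could not be measured. Klra1 and Klra3 in control Gzma-low cells, with 2 and 1 UMIs, allow no statement on size.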

Other observations

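Cells that met none of the NK, T and B rules also carried Ly49 transcripts. They numbered 1378 in control, 2908 in IR and 2419 in IR+HSO, with median UMI counts of 3364.5, 1427.5 and 1913. The make-up of this class differed between libraries. Erythroid genes summed to 26215, 241 and 237 CPM, 4 monocyte and macrophage markers to 1056, 14.7 and 26.1 CPM, and the 7 NK markers to 1313, 3617 and 2224 CPM. The part of this make-up in the Ly49 levels of the class was not tested. The 6 genes stood at 125, 939.9 and 508 CPM in these cells, and 3 or more family UMIs were found in 3.48%, 19.5% and 15.3% of them. Klrb1c was detected in 3.85%, 28.9% and 29.4%. An Ncr1 UMI was present in 3.19%, 18.7% and 12.6% of them, and these cells were kept out of the NK class by a UMI of Cd3d, Cd3e or Cd3g. The remaining Ly49-bearing cells had no Ncr1 UMI.

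Klra2 and Klra17, Ly49 genes known from myeloid and dendritic cells rather than NK cells, gave a different picture. In NK cells they had 0 to 3 UMIs in any library. In the cells outside the 3 rules Klra2 stood at 14.7 CPM in control (92 UMIs), 0.142 CPM in IR and 0.408 CPM in IR+HSO. Klra17 stood at 15.6 CPM in control (98 UMIs), 0.142 CPM in IR and 0.681 CPM in IR+HSO. Monocyte and macrophage markers were likewise far lower in these cells of both irradiated libraries. Siglech, a plasmacytoid dendritic cell marker, stood at 189, 0 and 0 CPM in control, IR and IR+HSO. The part of the make-up of the class in the levels of Klra2 and Klra17 was not tested.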
